A study of Mus musculus with 6 samples.

Results

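The adventitial fibroblast markers are 10 genes, chosen by name: Pi16, Dpp4, Ly6c1, Cd34, Dpt, Clec3b, Scara5, Il33, Cd248 and Gsn. Of these, 9 have a row in a table of 20645 genes counted by RNA sequencing of mouse lung cells. Dpp4, a cell-surface peptidase, has no row and was not analysed here. A further gene, Il33, had too few counts to be tested, which left 8 markers among the 13566 genes tested.

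All 6 libraries came from C57BL/6 lungs carrying Tbx4-rtTA, TetO-Cre and the mT-mG reporter, and all animals had doxycycline between embryonic day 6.5 and postnatal day 1. Membrane-bound TdTomato defined the 3 mT libraries, and membrane-bound GFP the 3 mG libraries. In this reporter a cell makes TdTomato until Cre recombines the locus and GFP afterwards, so the split depends on where the Tbx4-driven rtTA was active. The labels call the cells lung MSC, released with dispase, collagenase and DNAse into MSC medium before flow cytometry. They give neither the age at collection nor the number of animals behind the replicates. The p-values are therefore relative to a spread between libraries that could be technical. Totals were 16853561 to 19429138 counts per library, at which 3 counts equal 0.140 to 0.180 CPM, the count relative to a library total scaled by TMM.

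Adventitial fibroblasts lie in the connective tissue cuffs around large vessels and airways of the lung. They make collagen and matrix-binding proteins, and they are a known source of the alarmin interleukin 33 for tissue lymphocytes. No single gene defines them: Pi16 is used as a marker across organs, while Cd34 and Ly6c1 are also made by endothelial cells, Cd248 by pericytes and Gsn by most mesenchymal cells.

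Ly6c1 is the marker whose reads are most easily confused with those of a near-copy, so its coding sequence is shown beside that of Ly6c2. Both genes are on chromosome 15 and have 396 coding bases in GENCODE M21 (GRCm38), of which 97.7% are identical and 9 differ. The first 90 coding bases, counted from 1 at the start codon, hold 6 of the differences, shown in capitals.
Ly6c1: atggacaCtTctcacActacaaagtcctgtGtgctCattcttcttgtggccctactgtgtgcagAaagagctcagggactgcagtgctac
Ly6c2: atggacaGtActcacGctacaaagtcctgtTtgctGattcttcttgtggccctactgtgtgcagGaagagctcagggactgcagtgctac
Coding bases 66 to 155 lie within an identical run of 188 bases, where a read cannot tell the genes apart.
Ly6c1 and Ly6c2: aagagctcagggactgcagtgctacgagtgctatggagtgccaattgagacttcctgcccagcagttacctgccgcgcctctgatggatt
Of all 50-base words in Ly6c1 transcripts, 32.8% also occur in another gene, and 18.8% in the Ly6c2 transcript that shares most. Ly6c2 has no row in the table, and the counting rule for shared reads is not given in the sources used here, so the Ly6c1 counts are uncertain. No 50-base word of Dpt, Clec3b, Scara5, Il33, Cd248 or Gsn occurs in another gene. The shares were 3.88% for Pi16 and 2.14% for Cd34, each of which also overlaps exons of a gene on the opposite strand, which unstranded libraries cannot separate.

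Between mG and mT the markers had mixed directions and no call. None of the 8 tested passed an adjusted p of 0.05 in edgeR's quasi-likelihood test, against 0.907% of all tested genes (27 higher and 96 lower in mG). None had an unadjusted p under 0.05 either, where 14.6% of tested genes did. The fitted change was above 0 for 5 markers and below 0 for 3, with a median log2 fold change of 0.18 beside 0.024 over all tested genes. For 1 of 8, Ly6c1, the groups did not overlap, as in 20.8% of tested genes. In bulk libraries, fewer cells of a type and less RNA per cell cannot be told apart.

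**Figure D1:**
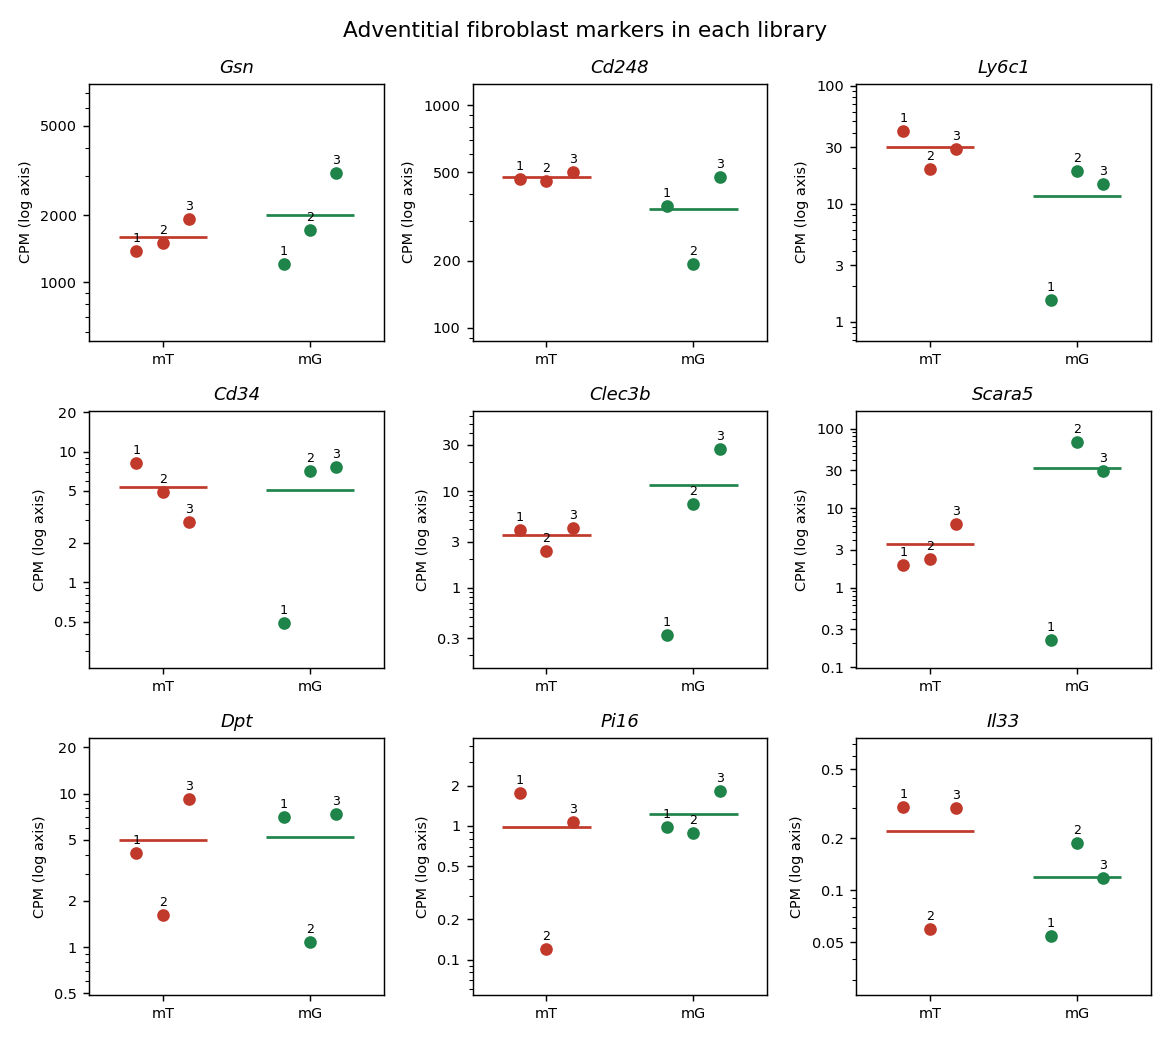
CPM of the 9 listed markers in each library, on log axes that differ between panels; points are libraries numbered by replicate and lines are group means of 3. The mG replicate 1 point is the lowest of the 6 for Gsn, Ly6c1, Cd34, Clec3b, Scara5 and Il33. For Il33, mG replicate 1 and mT replicate 2 each had 1 count.

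Scara5, a scavenger receptor that binds ferritin, was the marker with the widest range. It had 1.92, 2.27 and 6.41 CPM in mT replicates 1 to 3 and 0.218, 67.3 and 29.0 CPM in the mG replicates. The mG libraries therefore held both the lowest value and the highest ones, and the highest was 309 times the lowest. In counts, mG replicate 1 had 4 and mG replicate 2 had 1440. The means were 3.53 ± 2.49 CPM in mT and 32.2 ± 33.6 CPM in mG (SD, n = 3 each). The log2 fold change was 3.19 ± 1.47 (SE), with an adjusted p of 0.386 in edgeR. Without mG replicate 1 it was 3.77 with an adjusted p of 0.0948 in edgeR, the lowest any marker reached in the alternatives run. It was 2.02 without mG replicate 2, 2.00 with a replicate block and 1.47 in limma-voom, none of them past the threshold.

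Clec3b encodes tetranectin, a secreted C-type lectin that binds plasminogen. Its levels were 3.95, 2.39 and 4.13 CPM in mT and 0.327, 7.38 and 27.1 CPM in mG. As with Scara5, mG replicate 1 was below every mT library and mG replicates 2 and 3 were above them. The log2 fold change was 1.73 ± 1.19, with an adjusted p of 0.588 in edgeR. It fell to 0.15 without mG replicate 3 and to 0.79 with the replicate block, and was 0.26 in limma-voom.

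Ly6c1, a GPI-anchored surface protein, had 41.6, 19.8 and 29.1 CPM in mT and 1.52, 18.9 and 14.5 CPM in mG. Every mG library was below every mT library, but mG replicate 2 and mT replicate 2 lay close together. The means were 30.2 ± 10.9 CPM in mT and 11.6 ± 9.03 CPM in mG. The log2 fold change was -1.37 ± 0.79, with an adjusted p of 0.495 in edgeR. Without mG replicate 1 it was -0.85, with an adjusted p of 0.324 in edgeR. Ly6a, the Sca-1 antigen gene beside it in the family, had 488, 512 and 560 CPM in mT and 15.3, 164 and 239 CPM in mG. It too was lowest in mG replicate 1, and its log2 fold change of -1.90 had an adjusted p of 0.365 in edgeR. The aligned Ly6a and Ly6c1 coding sequences are 82.0% identical.

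Cd34, a sialomucin of progenitor, endothelial and stromal cells, had 8.20 CPM in mT replicate 1, 4.90 in replicate 2 and 2.87 in replicate 3. In mG it had 0.490, 7.05 and 7.59 CPM. The low value was again mG replicate 1, with 9 counts, and the other mG libraries lay inside the mT range. The means were 5.32 ± 2.69 and 5.05 ± 3.95 CPM, and the log2 fold change was -0.08 ± 0.89 with an adjusted p of 0.986 in edgeR.

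Cd248, the collagen-binding receptor endosialin, was steady in mT, at 466, 455 and 499 CPM. In mG it had 353, 193 and 475 CPM, so only mG replicate 3 lay inside the mT range. The means were 473 ± 23.1 and 340.1 ± 142 CPM, a log2 fold change of -0.48 ± 0.32 with an adjusted p of 0.580 in edgeR. Gsn, which encodes the actin-severing protein gelsolin, had 1382, 1495 and 1928 CPM in mT and 1212, 1707 and 3088 CPM in mG. Its mG values ran from below the mT range to above it. The log2 fold change was 0.32 ± 0.38, with an adjusted p of 0.793 in edgeR.

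Dpt encodes dermatopontin, a matrix protein that binds decorin and collagen. It had 4.10, 1.61 and 9.22 CPM in mT and 7.08, 1.07 and 7.42 CPM in mG. Its low libraries were replicate 2 of each group, and not mG replicate 1. The log2 fold change was 0.06 ± 0.85, with an adjusted p of 0.988 in edgeR.

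Pi16, a secreted peptidase inhibitor, had 35, 2 and 18 counts in mT and 18, 19 and 31 counts in mG, or 0.120 to 1.82 CPM. The lowest library was mT replicate 2, and the groups overlapped. Its log2 fold change of 0.30 ± 0.82 had an adjusted p of 0.928 in edgeR. Il33, the alarmin gene, had 6, 1 and 5 counts in mT and 1, 4 and 2 in mG. The mT to mG ratio of its summed counts, 12 against 7, was 1.83, with an exact binomial 95% interval of 0.664 to 5.48 that covers counting error only. That interval leaves the direction of any difference in Il33 undecided at this depth.

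**Figure D2:**
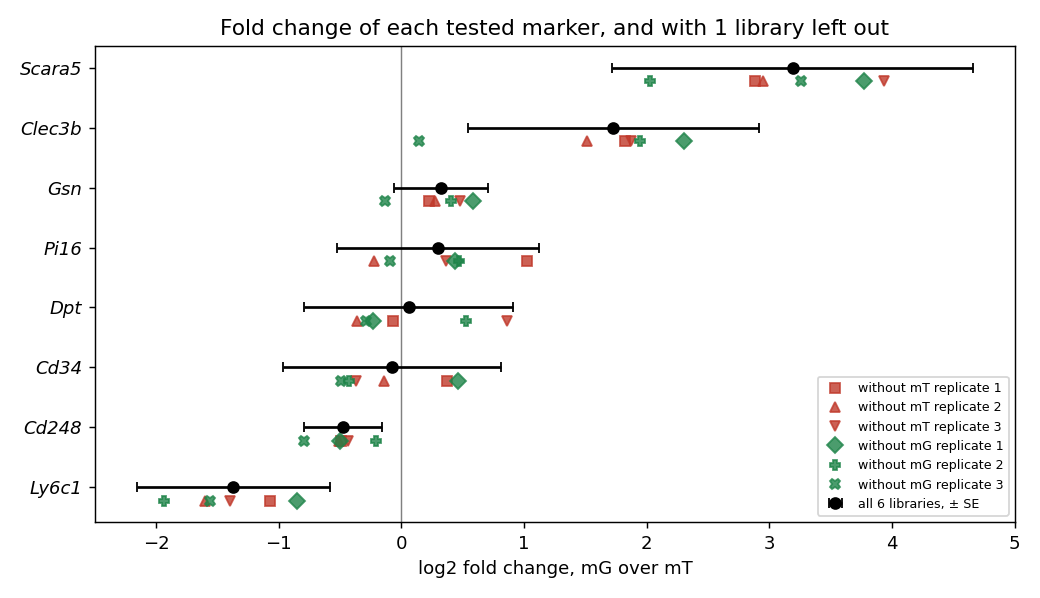
Log2 fold change of mG over mT for the 8 tested markers; black points are the fit to all 6 libraries with SE, and coloured symbols the fit with 1 library left out. Clec3b moves to 0.15 without mG replicate 3, and Dpt, Pi16, Gsn and Cd34 have symbols on both sides of 0.

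The spread inside a group was wider for the median marker than for the median tested gene. The median range over the 3 libraries, in log2 CPM with a prior count of 2, was 1.29 in mT and 2.67 in mG over the 9 listed markers. Over the tested genes it was 0.368 in mT and 0.712 in mG. The markers were not matched to these genes for level. Their mT median is the value of Il33, which had 1 to 6 counts per library. Scara5 spanned 7.69 in mG and Clec3b 5.96, while Cd248 spanned 0.134 in mT. The library mG replicate 1 was the lowest of the 6 for 5 of the 8 tested markers, and for 25.6% of tested genes. Il33, which was not tested, had 1 count there and also 1 count in mT replicate 2. Dpt and Cd248 were lowest in mG replicate 2, and Pi16 in mT replicate 2.

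Markers of other cell types also differed between libraries, and their part in these values was not tested. Smooth muscle genes, all 10 with a row, summed to 7447 to 11485 CPM in mT and 2240 to 15378 in mG. Acta2, smooth muscle actin, was at 11789 CPM in mG replicate 1, at 1631 in replicate 2 and at 4735 in replicate 3. The library low in Scara5, Clec3b, Cd34 and Ly6c1 was thus the highest of the 6 in Acta2. The endothelial list, with 16 of 20 genes in the table, includes Ly6c1 and Cd34 and summed to 365 to 545 CPM in mT and 312 to 519 in mG. Pecam1 had 139, 0 and 28 counts in mT and 0, 3 and 0 in mG, and Cdh5 had 134, 0 and 11 in mT and 0 in every mG library. The library with the most counts of both, mT replicate 1, was also the highest of the 6 for Ly6c1 and Cd34. In mT replicate 2, with both at 0, Ly6c1 had 331 counts and Cd34 had 82. Flt1, on the same list, was instead highest in mG replicate 1, where Ly6c1 and Cd34 were lowest. It had 103, 52.3 and 172 CPM in mT and 256, 22.2 and 236 CPM in mG. That was a large part of the summed list in mG replicates 1 and 3, where the sums were 474 and 519 CPM. It was a small part in mG replicate 2, where the sum was 312.

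The remaining lists give the setting of the same cells. Alveolar fibroblast genes, 17 of 20 with a row, summed to 1290 to 1964 CPM in mT and 1029 to 2059 in mG. Pericyte genes, 15 of 16, summed to 1456 to 2285 CPM in mT and 1259 to 1676 in mG, with Cspg4 at 81.4 to 259 CPM over the 6 libraries. The 9 listed adventitial markers summed to 1910 to 2481 CPM in mT and 1575 to 3651 in mG, most of it Gsn and Cd248. Mesothelial genes, 8 of 12, summed to 50.9 to 66.1 CPM in mT and 12.4 to 91.8 in mG, and Msln was highest in mG replicate 3, at 54.0 CPM. That library was also the highest for Clec3b. In contrast, mG replicate 2 was the lowest for Msln, at 3.78 CPM, and had 7.38 CPM of Clec3b, above every mT library. Epithelial genes, 7 of 16, summed to 34.6 to 54.4 CPM over the 6 libraries and Epcam has no row. Leukocyte genes, 9 of 18, summed to 9.37 to 19.0 CPM, with Ptprc at 0 to 6 counts. In edgeR, 2 of 13 tested pericyte genes passed the threshold, Ebf1 and Trpc6, both lower in mG, beside 0.907% of all tested genes. None passed of 14 alveolar fibroblast, 10 smooth muscle, 8 endothelial, 7 mesothelial, 3 epithelial and 3 leukocyte genes. Of these, 6, 0, 1, 2, 0 and 3 in turn had an unadjusted p under 0.05 in edgeR. So did 5 of the 13 pericyte genes, and 14.6% of all tested genes.

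Levels can be compared between genes only per length. In the authors' RPKM, the mean over the 6 libraries was 168 for Gsn and 149.6 for Cd248, then 7.26 for Clec3b, 4.59 for Ly6c1, 2.82 for Dpt and 1.67 for Scara5. Cd34 followed at 0.452, Pi16 at 0.0773 and Il33 at 0.0248 RPKM. Between neighbours in this order the ranges over libraries overlapped, except that every Cd248 value was above every Clec3b value. Pi16 and Il33, which had few reads, were thus the lowest of the 9, while the broadly made Gsn and Cd248 were the highest.

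The order depends on the lengths used. The table lists 10274 bases for Gsn and 4371 for Ly6c1, where the merged exons in GENCODE M21 cover 3157 and 1677. With the GENCODE lengths, the mean was 571 CPM per kilobase for Gsn and 156 for Cd248, and their ranges no longer overlapped. Ly6c1, at 12.5, then stood above Clec3b, at 7.60.

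**Figure D3:**
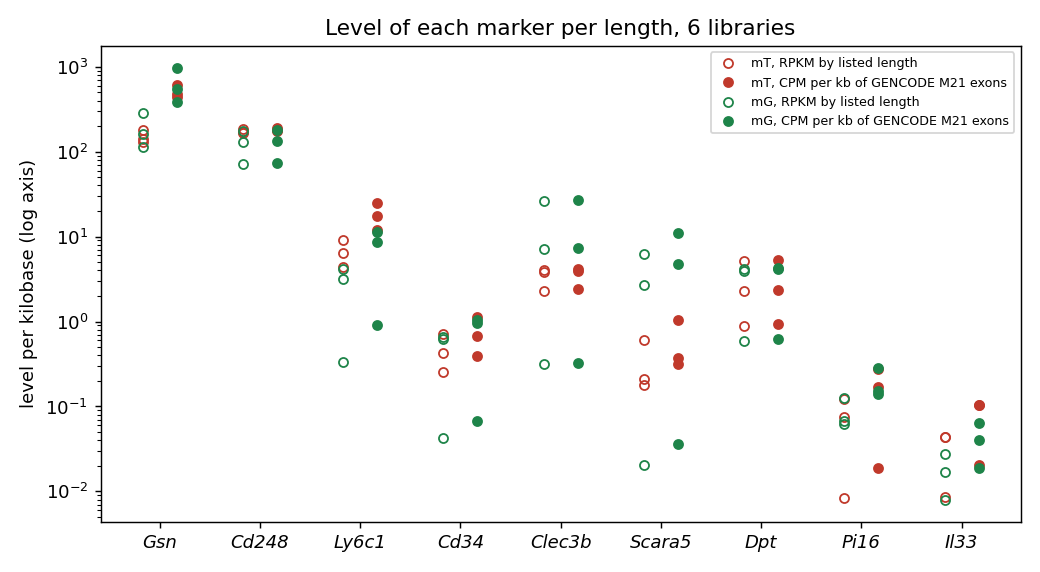
Level per kilobase of each listed marker in 6 libraries on a log axis; open circles are the authors' RPKM and filled circles CPM per kilobase of GENCODE M21 exons. Gsn and Cd248 lie above every other marker on both scales, and Pi16 and Il33 are lowest by mean.

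Ratios between markers inside a library need no scaling of depth; the pairs were chosen after their values were seen and were not tested. The RPKM ratio of Scara5 to Ly6c1 was 0.0197, 0.0489 and 0.0938 in mT and 0.0609, 1.52 and 0.850 in mG. For mG replicate 1 it thus lay inside the mT range, while mG replicates 2 and 3 were above it. The Clec3b to Ly6c1 ratio was 0.417 to 0.624 in mT and 0.941, 1.72 and 8.18 in mG. It was higher in each mG library than in every mT library, but its mG replicate 1 value rested on 6 and 28 counts. The Gsn to Cd248 ratio was 0.753 to 0.979 in mT and 0.872, 2.25 and 1.65 in mG. For that pair, mG replicate 1 lay inside the mT range. The lengths are the same in every library, so they do not alter how a ratio compares between libraries. Which gene of a pair stands higher does depend on the lengths used. By RPKM, Scara5 and Clec3b were above Ly6c1 in mG replicate 2. With the GENCODE lengths, Ly6c1 was above Clec3b and slightly above Scara5 in that library. With those lengths, Gsn was also above Cd248 in every library.

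The genes with the most similar profile were found by the root mean square difference of centred log2 CPM over the 6 libraries, which share depth and scaling. For Cd248 they were Emp1, at 0.0577, and Foxf2, at 0.0743. For Gsn they were Timp2, at 0.0767, and 2210408F21Rik, at 0.0990. The sterol hydroxylase gene Ch25h, at 0.179, and the VEGF receptor gene Flt1, at 0.365, were nearest to Dpt. The measure grows with the spread of a gene's own values, so its size is not compared between markers. Lrg1 was nearest to both Clec3b, at 0.656, and Scara5, at 1.03, followed by Akr1c14 for Clec3b, at 0.667, and S100b for Scara5, at 1.05. Extl1 and Gm1627 were nearest to Ly6c1, at 0.439 and 0.494, and Syn2 and Tmem229b to Cd34, at 0.455 and 0.485. Both Extl1 and Gm1627 were at 0 CPM in mG replicate 1, and Lrg1 was at 0.109 CPM there. At such levels the log2 CPM depends on the prior count of 2. For Pi16 the nearest were the pseudogenes Gm11518, at 0.277, and Rpl38-ps1, at 0.305. Among the markers themselves the closest pairs were Cd248 with Gsn, at 0.577, and Ly6c1 with Cd34, at 0.766.

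A further 38 genes linked to adventitial fibroblasts were read from the same fit. Of these, 36 have a row and 33 were tested, 18 with a fitted change above 0 and 15 below, and a median log2 fold change of 0.37 beside 0.024 over all tested genes. In edgeR 1 of the 33 passed the threshold, where 0.907% of all tested genes did: Pcolce2, an enhancer of procollagen processing, lower in mG. At an unadjusted p under 0.05 there were 8 of 33, 4 higher and 4 lower, where 14.6% of all tested genes were. DESeq2 called 9 of the list, where it called 5.95% of the genes it tested. Among the 9 was Efhd1, which had too few counts for the main edgeR test. The levels of Pcolce2 were 18.2, 36.7 and 19.2 CPM in mT, and 3.32, 4.53 and 2.24 CPM in mG. The groups were well apart, with a log2 fold change of -2.87 ± 0.40 and an adjusted p of 0.0399 in edgeR. The call of Pcolce2 was lost without any 1 of the 3 mT libraries (adjusted p 0.0811, 0.109 and 0.127 in edgeR), without mG replicate 1 (0.0967) or 3 (0.121), and in limma-voom (0.0727).

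Other genes of the list with large differences did not pass in edgeR, and for some of them the call depended on the tool. Col14a1, a fibril-associated collagen, had 32.0, 1.14 and 11.7 CPM in mT and 214, 132 and 127 CPM in mG. The groups did not overlap, and the log2 fold change of 3.40 ± 1.00 had an adjusted p of 0.200 in edgeR and 0.00178 in DESeq2. Serpinf1, which encodes the anti-angiogenic factor PEDF, had 1255, 1954 and 1570 CPM in mT and 309, 152 and 517 CPM in mG, a log2 fold change of -2.29 ± 0.47 with an adjusted p of 0.0994 in edgeR and 3.88e-05 in DESeq2. Without mG replicate 2 its adjusted p was 0.0446 in edgeR. Lum, a collagen-binding proteoglycan, had a log2 fold change of 3.74 ± 1.57 that rested on 25.5 CPM in mG replicate 2, with an adjusted p of 0.346 in edgeR. The transcription factor gene Creb5 had a log2 fold change of -2.25 ± 0.57 and an adjusted p of 0.152 in edgeR and 0.00266 in DESeq2.

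Of the most abundant genes of that list, Serpinf1 is given above. Fn1, fibronectin, was at 6562, 2543 and 4541 CPM in the mT libraries and at 9302, 10475 and 14600 in the mG libraries. The groups did not overlap, and the log2 fold change of 1.33 ± 0.46 had an adjusted p of 0.262 in edgeR and 0.0155 in DESeq2. The groups overlapped for the other two. Timp2, a metalloproteinase inhibitor, had 2365 ± 340 and 3050 ± 1372 CPM, and the secreted glycoprotein gene Fstl1 had 2073 ± 375 and 1980 ± 312 CPM. Their adjusted p-values were 0.744 and 0.954 in edgeR.

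**Figure D4:**
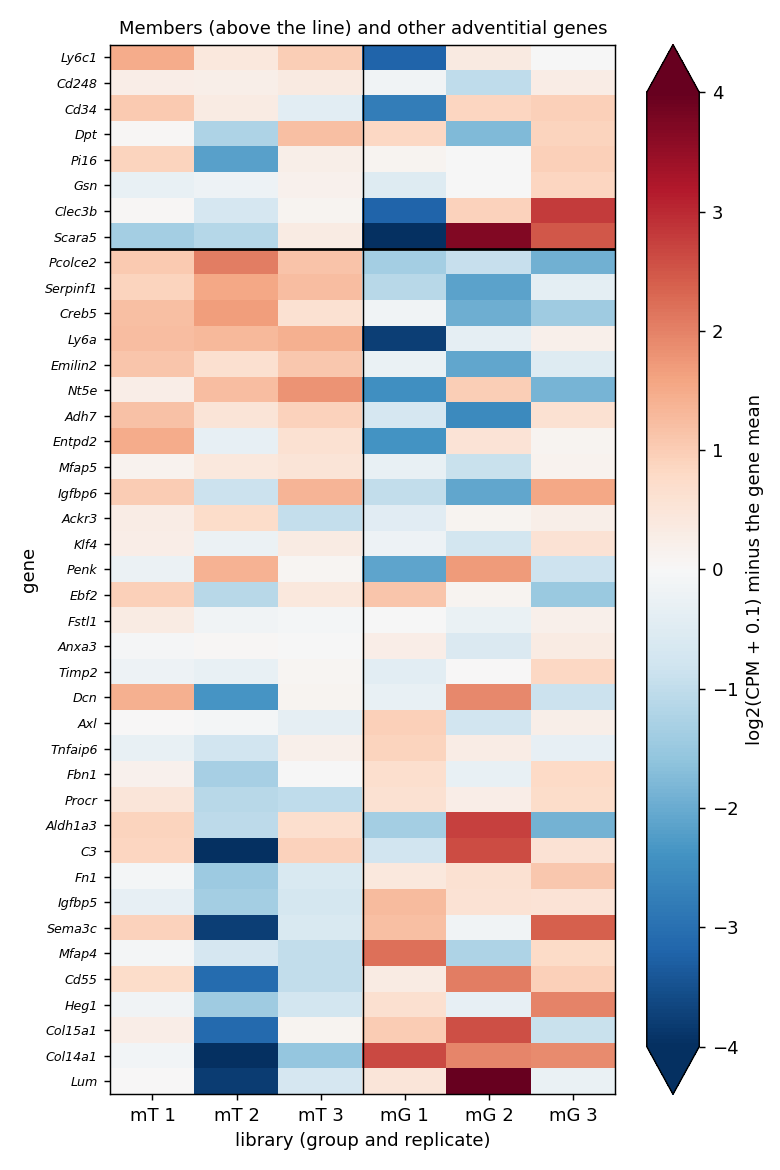
Log2(CPM + 0.1) of the 8 tested markers (above the line) and 33 other adventitial genes in 6 libraries, each gene centred on its mean; colours end at 4 on either side. Scara5 and Clec3b have their deepest blue in mG replicate 1, while Col14a1 is red in all 3 mG libraries.

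Other tools gave the markers no call. DESeq2 called 5.95% of the genes it tested, limma-voom 0.678% and edgeR with a replicate block 0.796%, and none of the 8 markers was among them. The authors' deposited table lists 1248 of 20645 genes past an adjusted p of 0.05, with none of the 9 listed markers among them. Of the 33 other adventitial genes tested here in edgeR, 7 were past it in the authors' deposited table. Col14a1, Igfbp5 and Lum were higher in mG, and Pcolce2, Serpinf1, Creb5 and Emilin2 lower. The lowest value for a marker in the authors' deposited table was that of Scara5, a log2 fold change of 3.18 with an adjusted p of 0.0751. In the authors' deposited table Ly6c1 had -1.38 with an adjusted p of 0.300, and Clec3b 1.73 with 0.345.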

How the data were processed

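RNA was sequenced from 3 mT and 3 mG libraries, grouped by their titles. Tools listed in the submitters' processing notes are STAR, edgeR 4.0, Trimmomatic 0.38, cutadapt 5.0 and FastQC 0.11.9. Neither the build and annotation nor the counter is given in the sources used here. Per the file headers, 1 table holds the authors' raw counts, RPKM by a listed gene length, TMM-scaled signal, log2 fold changes, a likelihood-ratio score, p-values and their −log10. Counts were tested with edgeR 4.0.16 in R 4.3.3 (TMM, filterByExpr with a minimum count of 10, quasi-likelihood test, Benjamini-Hochberg over 13566 genes at 0.05), which was tested on simulated data. CPM are counts over TMM-scaled totals, errors are SD (n = 3) or SE of the log2 fold change, and intervals cover counting error only. The 36 rows without a gene name, 0.0130 to 0.0352% of counts, stayed in the library totals and were open to the test. They were left out of the search for similar profiles.

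Alternatives were RLE and upper-quartile scaling, no filter, a CPM filter, DESeq2 1.42.0, limma-voom (limma 3.58.1), a replicate block and leaving out each library. Deviations of same-numbered mT and mG libraries correlated at 0.24, 0.18 and 0.30, and other pairings at -0.184 to -0.0537. The labels do not say that the numbers pair the samples. The main test did not pair them, and only the replicate block used the numbers. No libraries were identical. Sequences and exon lengths came from GENCODE M21 (GRCm38).

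The markers and gene lists were chosen with earlier results of these data known. Genes named are all 10 markers; of the other adventitial genes each called one, the 4 tested with the largest change and the 4 with the highest RPKM; the 2 genes most like each tested marker; defining markers of other cell types; and Ly6c2 and Ly6a. Ebf1, Trpc6, Igfbp5, Emilin2 and Efhd1 were named after their values were seen.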

Additional observations from a re-analysis of the deposited data

How the results depend on the processing

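The count of markers past the threshold was 0 in the main test and in all 13 alternatives. Over all genes, edgeR called 123, DESeq2 960 and limma-voom 92; leaving out 1 library gave 20 to 362, the highest without mG replicate 2 and the lowest without mT replicate 3. For the other adventitial genes the count was 1, against 9 in DESeq2, 0 in limma-voom and 0 to 4 with 1 library left out. With the replicate block, 108 genes were called, Pcolce2 was still called, and no call of a marker changed.

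Direction changed for markers with a fitted change near 0. With 1 library left out the log2 fold change ranged from -0.22 to 1.03 for Pi16, -0.49 to 0.46 for Cd34, -0.36 to 0.86 for Dpt and -0.13 to 0.58 for Gsn, and from -0.050 to 0.61 for Timp2 and -0.18 to 0.092 for Fstl1. Dpt was also -0.12 in limma-voom and -0.015 with the replicate block. The cause was not tested. Ly6c1 and Cd248 stayed below 0, and Scara5 and Clec3b above 0, in all 13 alternatives. Depth limits Pi16 and Il33, which had 2 to 35 and 1 to 6 counts per library.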
